A study of Mus musculus with 12 samples.

Results

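The genes described here are the heat shock proteins and DnaJ proteins of the mouse hippocampus. They were chosen by name: every probe that is not a control spot and whose gene name starts with Dnaja, Dnajb, Dnajc, Hspa, Hspb, Hspd, Hspe, Hsph or Hsp90. This gave 73 genes, measured by 113 probes on 131 spots, out of 29608 gene names on the array. They comprise 10 genes of the HSP70 family, 3 HSP110 genes, 3 HSP90 genes, both chaperonin genes of mitochondria, 8 small heat shock proteins, and 4, 13 and 28 DnaJ proteins of classes A, B and C. The prefix also took in *Hspbp1* and *Hspbap1*, which encode partners of heat shock proteins and not chaperones. *Hspa1b*, the near copy of *Hspa1a*, has no probe under that name.

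Chaperones of the HSP70 family hold unfolded stretches of other proteins in a cycle driven by ATP. DnaJ proteins deliver clients to them and start ATP hydrolysis, HSP110 proteins help release the nucleotide, and HSP90 takes over clients that are nearly folded. Small heat shock proteins bind unfolding proteins without ATP, and HSP60 with HSP10 folds proteins imported into mitochondria. In neurons many of these genes are active without stress, and a smaller set is switched on by the transcription factor *Hsf1* when proteins unfold.

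The 12 hippocampi came from female mice of about 12 weeks taken at diestrus, 4 in each of 3 groups. MRL/lpr mice carry the lpr mutation of *Fas* and develop a lupus-like disease. The Fn14ko mice carry the same background and a constitutive deletion of *Tnfrsf12a*, which encodes Fn14, the receptor of the cytokine TWEAK, after 8 generations of backcrossing, and were littermates of the MRL/lpr mice. MRL/+ mice, labelled MRL/MpJ, lack the lpr mutation and were purchased. A free-text label says cortex while the tissue label says hippocampus.

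Each of the 6 arrays held 2 mice of 1 group, replicates 1 and 3 in Cy3 and 2 and 4 in Cy5, and both arrays of a group shared a slide, so slide and group cannot be told apart. The array of MRL/lpr replicates 3 and 4, called the weak array here, had a median foreground of 1.93 and 1.73 times background, against 4.42 to 12.6 in the other 10 samples. On the Cy5 channel of the MRL/+ arrays, replicates 2 and 4, only 29.6% and 31.8% of spots were well above background. The probe for *Tnfrsf12a* stood clear of background in each of the 4 mice labelled Fn14ko, hereafter Fn14ko mice, at 0.151 to 0.189 times the channel median against 0.241 to 0.439 in MRL/lpr and 0.283 to 0.629 in MRL/+, and whether that probe lies in the deleted part is not given in the sources used here. Nothing in the labels says whether tissue was pooled.

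Signals are background-subtracted and divided by the median of 10877 spots measured in all 12 samples, so 1 stands for the median of those spots in that mouse. A probe's brightness depends on the probe as well as on the transcript, so a gene's values are compared between mice and not between genes. Of the 73 genes, 39 had a spot that passed the study's filter in all 12 samples (foreground at least 2 times background and no outlier flag). Another 25 passed in the 10 samples outside the weak array, and 9 passed in neither. Of these 9, *Dnajb7*, *Dnajb8*, *Dnajc22* and *Hspb7* were not well above background in any mouse, and the others were *Dnajb13*, *Dnajc5b*, *Dnajc5g*, *Hspa1l* and *Hspbap1*. A gene passed the test where the limma p-value, adjusted by Benjamini-Hochberg over all genes, was under 0.05. The exact permutation p-values given for some genes shuffle single mice. They ignore dye and treat mice that share an array as independent, so they are no evidence beyond the spread of these mice.

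Probes the results turn on are shown by their first 30 bases: those of *Dnajc28* and *Dnajc14*, the probe of *Hspa1a*, which had the largest difference among the members that passed the filter and the test in 12 mice, and pairs for *Dnajb6* and *Hspe1* that lie on nearly the same stretch of the transcript. In the pairs, capitals mark the longest unbroken stretch that both probes share, 51 bases for *Dnajb6* and 45 for *Hspe1*. The *Hspe1* probes overlap at 57 positions and differ by 1 base just before the capitals. Lower-case bases ahead of that mismatch are shared too. Coordinates are those of mm9, as the files give them.
Dnajc28, chr16:91615982-91616041, minus strand: ctgaagaagttgtaatgagatttaaccaac
Dnajc14, chr10:128256441-128256500, plus strand: ttaggagtttggtttattttcagtcccttc
Dnajc14, chr10:128256256-128256315, plus strand: atcagtttgtttgttaatggttaatgataa
Hspa1a, chr17:35107117-35107176, minus strand: tgacaagaagaaggtgctggacaagtgcca
Dnajb6, chr5:30112861-30112920, plus strand: CAAGGAGGAATGTATTTTAGTGCTACTGAC
Dnajb6, chr5:30112855-30112911, plus strand: gaccctCAAGGAGGAATGTATTTTAGTGCT
Hspe1, chr1:55148023-55148082, plus strand: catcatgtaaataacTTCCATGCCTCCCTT
Hspe1, chr1:55148026-55148085, plus strand: catgtaaataatTTCCATGCCTCCCTTTTA

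The overlapping pairs parted on the weak array. The *Dnajb6* probe at 30112861 read 0.231 and 0.380 times the channel median in MRL/lpr replicates 3 and 4, while its partner, shifted by 6 bases, read 2.26 and 2.44. In the other 10 mice the probe means were 0.677 and 0.748, a ratio of 1.10, against a ratio of 7.69 on the weak array. The *Hspe1* probes read 1.77 and 1.26, and 5.25 and 7.95, on the weak array, a ratio of 4.36, and differed by a ratio of 1.04 in the other 10 mice. Over the 22 chaperone genes with several probes measured in the other 10 samples, the level of the weak array relative to those samples differed between probes of the same gene by a median of 4.60-fold (range 1.21 to 146). For MRL/lpr replicates 1 and 2 relative to the 8 mice of the other groups, the same measure was 1.45-fold (range 1.11 to 3.23). Results are therefore given with the weak array and without it. Without it MRL/lpr holds 2 mice on a single array, which are assumed to vary like the other groups.

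**Figure D1:**
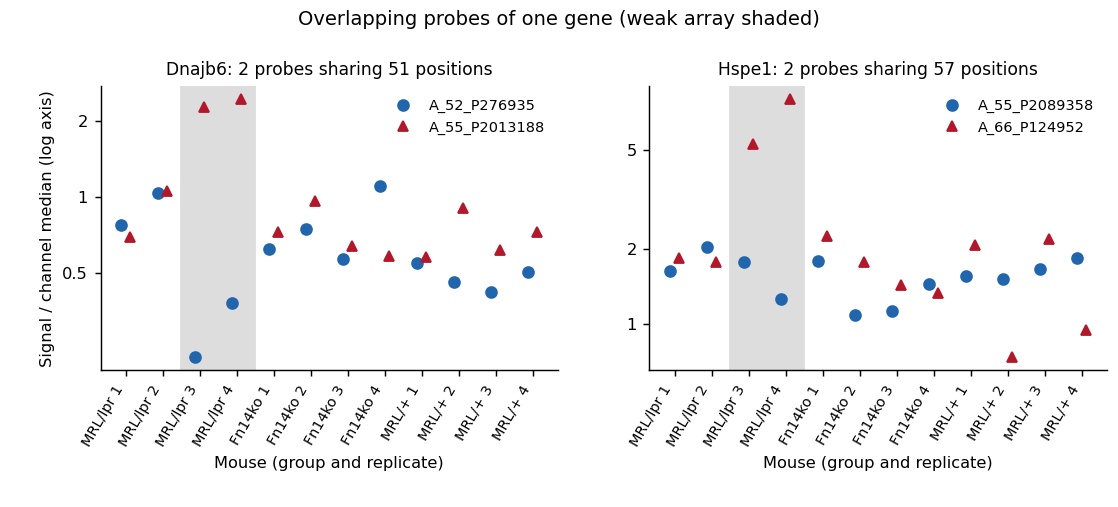
Signal of the overlapping probes of Dnajb6 and Hspe1 in each of the 12 mice, divided by the channel median on a log axis; the weak array is shaded. The probes of a gene lie within a few-fold of each other in 10 mice and part on the weak array, where the Dnajb6 means are 0.306 and 2.35 and the Hspe1 means 1.51 and 6.60.

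Between MRL/lpr and MRL/+ mice, the comparison of lupus-prone and control hippocampus, 4 of the 39 chaperone genes measured in all 12 mice rose and 0 fell, where 9.17% of the 8864 genes tested passed (3.46% higher and 5.71% lower). The 4 were *Hspa1a*, *Hspa12a*, *Dnajc1* and *Dnajb6*. The median log2 difference of the 39 was −0.02, that of all genes −0.01. Leaving out single mice gave 0 to 13 called members, the highest counts, 12 and 13, without MRL/lpr replicates 1 and 2, which leave the weak array as 2 of the 3 MRL/lpr mice. With the array as a random block (estimated correlation 0.71) the limma count was 0 members. The share of all genes is not given for these settings, so the counts do not set chaperones apart.

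Between MRL/lpr and Fn14ko mice, the comparison of the receptor's deletion within the lupus-prone background, 0 of the 39 passed, where 3.98% of genes did, and 9 had an unadjusted limma p under 0.05 (36.2% of all genes). Between Fn14ko mice and MRL/+, 0 of 39 passed, where 0.519% of genes did, and 5 had an unadjusted limma p under 0.05 (15.3% of all genes). The methods' t-test passed 2 and 7 of the 39 unadjusted in these comparisons and 0 in each after Benjamini-Hochberg adjustment. The share of all genes under that t-test is not given, so its counts do not set chaperones apart. Medians of the 39 were −0.08 and 0.01, those of all genes 0.03 and −0.16.

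Over 10 samples without the weak array, 64 of the 73 genes were measured. Between MRL/lpr and MRL/+, 8 rose and 6 fell, where 15.7% of 17936 genes passed (6.11% higher and 9.61% lower). Between MRL/lpr and Fn14ko mice, *Hspa1a* and *Hspa2* rose and *Hspb3* and *Hspb6* fell, where 9.12% of genes passed (4.09% higher and 5.03% lower). Between Fn14ko mice and MRL/+, 11 rose and 4 fell, where 21.1% of genes passed (10% higher and 11.1% lower). Beside those described below, *Hspa14*, an HSP70 bound to ribosomes, rose from MRL/+ by 1.04 in MRL/lpr and 0.86 in Fn14ko mice (adjusted p = 0.0262 and 0.0219). *Dnajc21*, a ribosome assembly factor, fell from MRL/+ in the same comparisons, with log2 differences of −0.79 and −0.84 (adjusted p = 0.0326 and 0.0112), as did *Hspb9*, a testis-enriched small heat shock protein, with −1.0 and −1.14 (adjusted p = 0.0441 and 0.0116; −0.67 within Cy3 and −1.62 within Cy5 in the latter). *Dnajc27* fell in MRL/lpr (−1.46, adjusted p = 0.0178; −0.84 within Cy3 and −2.08 within Cy5), and *Dnajb12*, *Dnajc8*, *Dnajc12* and *Hspb8* rose in Fn14ko mice by 0.85, 0.98, 0.52 and 0.65. For these genes and for *Hspa14*, the MRL/+ Cy5 mice read below the MRL/+ Cy3 mice in the values of the 10-sample fit. *Dnajc27* was not among these, and *Dnajc30* fell in none of these comparisons: its difference from MRL/+ in MRL/lpr, −0.91 with 12 mice, was −0.08. As shares of the 64 members, 12.5% rose and 9.38% fell in the first of these comparisons, and 17.2% rose and 6.25% fell in the last.

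**Figure D2:**
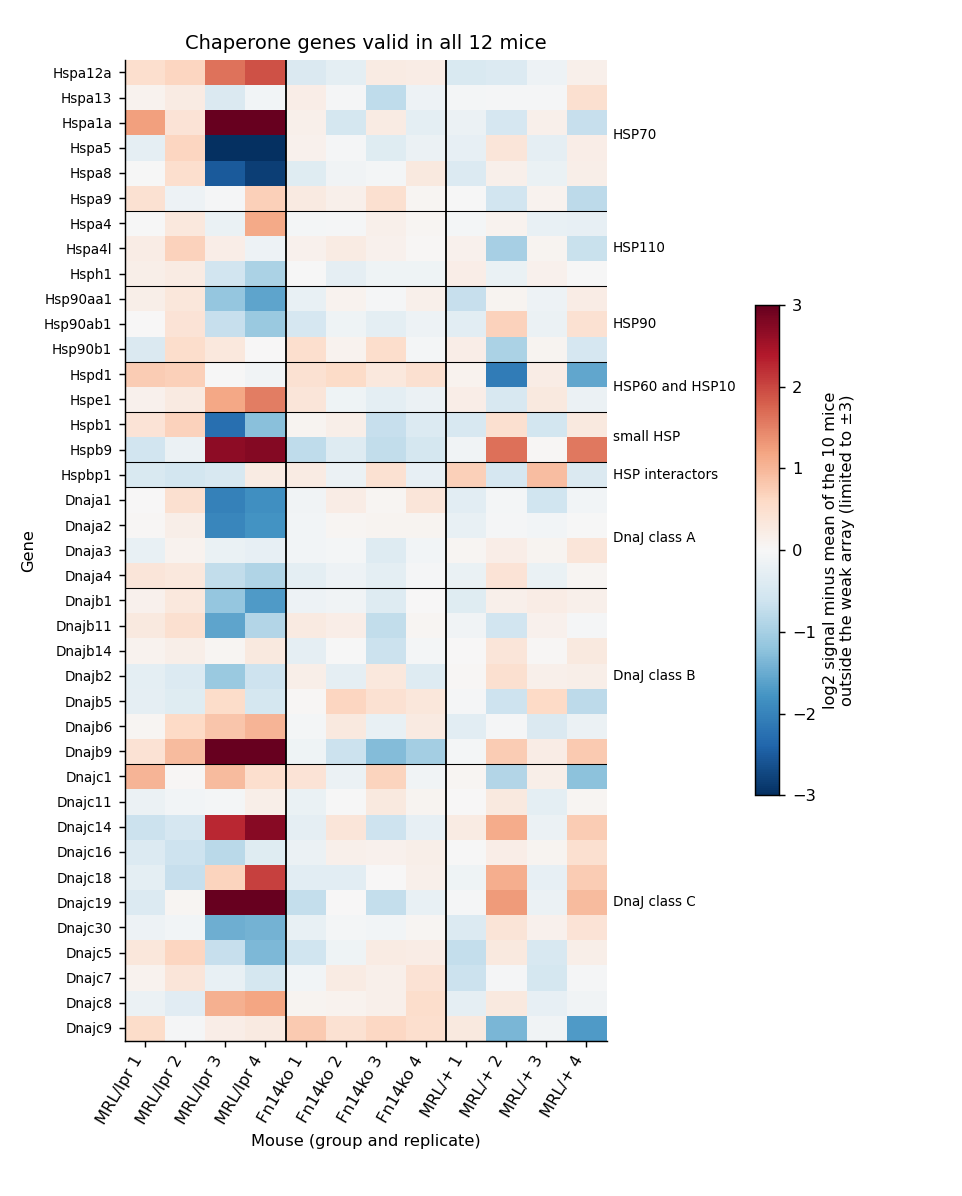
Log2 signal of the 39 chaperone genes measured in all 12 mice, each minus its mean over the 10 mice outside the weak array, with colours limited to ±3; columns are mice by group and replicate, and lines part the families and groups. The weak array, MRL/lpr 3 and 4, departs most, with Hspa5, Hspa8 and Dnaja1 low and Hspa1a, Dnajb9 and Dnajc19 high, and MRL/+ 2 and 4 are low in Hspd1 and Dnajc9.

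*Dnajc28*, a J protein of unsettled function, was among the dimmest members. Its single probe stood well above background in 7 mice: 3 Fn14ko, 2 MRL/lpr and 2 MRL/+. The signal was 0.0300, 0.0494, 0.109 and 0.197 times the channel median in MRL/lpr replicates 1 to 4, 0.0312, 0.0311, 0.0294 and 0.0287 in Fn14ko mice, and 0.0329, 0.126, 0.0334 and 0.0915 in MRL/+. The high values lie on the weak array and on the Cy5 channel of MRL/+, and the other 8 mice lie between 0.0287 and 0.0494. By signal it ranked 71, 64 and 69 of 73 members in MRL/lpr, Fn14ko and MRL/+, where 1 is the brightest, and only 24.8%, 45.5% and 35.6% of all gene names on the array were dimmer. These ranks describe probes and not transcript abundance.

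With no filter on dim spots the log2 difference of *Dnajc28* was 0.33 between MRL/lpr and MRL/+ (SE 0.68, adjusted p = 1; exact two-sided permutation p = 0.657) and 1.32 between MRL/lpr and Fn14ko mice (SE 0.68, adjusted p = 0.207; exact permutation p = 0.0857). In that unfiltered fit the median of all 29608 genes moved by 0.21, 1.34 and −0.97 in the 3 comparisons (MRL/lpr against MRL/+, MRL/lpr against Fn14ko, Fn14ko against MRL/+), so the second difference lay close to the shift of all genes. With the median of all spots as the scale the differences were −0.21 and −0.14. With 10 samples without the weak array they were −0.47 (SE 0.38, adjusted p = 0.412) and 0.27 (SE 0.38, adjusted p = 0.764).

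*Dnajc14*, an endoplasmic reticulum J protein that assists the transport of dopamine receptors, has probes at 128256256 and 128256441 on chromosome 10, of which the one kept in all 12 mice read 0.0977, 0.107, 0.736 and 1.01 in MRL/lpr, 0.127, 0.195, 0.0992 and 0.128 in Fn14ko mice, and 0.182, 0.330, 0.136 and 0.258 in MRL/+. The MRL/lpr mice split by array, replicates 1 and 2 below every MRL/+ mouse and replicates 3 and 4 above every other mouse. In MRL/+ the higher values are those of the Cy5 mice. The log2 difference was 0.47 against MRL/+ (SE 0.71, adjusted p = 0.635) and 1.16 against Fn14ko mice (SE 0.71, adjusted p = 0.225). Without the weak array it turned to −0.85 (SE 0.25, adjusted p = 0.0439) and −0.30 (SE 0.25, adjusted p = 0.55). The weak array read 4.07 and 5.26 times the other 10 samples on these probes. The first of them was dim, well above background in 1 MRL/lpr, 2 Fn14ko and 2 MRL/+ mice. Probes of *Dnajb11*, *Hsp90aa1* and *Dnajc2* that cleared background in no mouse read 3.85, 4.35 and 5.28 times the other samples on that array. A rise of this size on the weak array is thus not particular to *Dnajc14*. Its place by signal was 51, 57 and 57 of 73 members.

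The median coefficient of variation over the 73 genes was 54.3% in MRL/lpr, 15.7% in Fn14ko mice and 28.9% in MRL/+. For *Dnajc28* it was 77.8%, 4.07% and 64.6%, and for *Dnajc14* 93.5%, 27.8% and 47.1%, ranks 24, 71 and 15, and 16, 12 and 22 of the 73. The MRL/lpr coefficients include the weak array, and those of every group mix Cy3 and Cy5. They therefore do not measure the variation between mice alone.

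Among the HSP70 genes, *Hspa1a*, the stress-inducible cytosolic HSP70, was higher in all 4 MRL/lpr mice than in every other mouse. It read 0.467, 0.263, 2.15 and 2.27 in MRL/lpr, 0.220, 0.137, 0.237 and 0.161 in Fn14ko mice, and 0.177, 0.140, 0.221 and 0.124 in MRL/+. The log2 difference from MRL/+ was 2.44 (SE 0.61, adjusted p = 0.0336; exact permutation p = 0.0286, the smallest that 4 mice against 4 can give) and that from Fn14ko mice 2.25 (SE 0.61, adjusted p = 0.0586; exact permutation p = 0.0286). Without the weak array the differences were 1.28 (SE 0.19, adjusted p = 0.00164) and 0.84 (SE 0.19, adjusted p = 0.0206). Within Cy3 and within Cy5 these were 1.19 and 1.37 against MRL/+, and 0.94 and 0.74 against Fn14ko mice. With the array as a random block the adjusted p was 0.235 and 0.276. The probe lies in a gene whose coding sequence *Hspa1b* nearly shares, so its signal may hold both transcripts.

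*Hspa12a*, a distant HSP70 relative abundant in neurons, read 0.977, 1.08, 2.15 and 2.61 in MRL/lpr against 0.513 to 0.822 in Fn14ko mice and 0.509 to 0.767 in MRL/+, with no overlap. The log2 difference from MRL/+ was 1.39 (SE 0.34, adjusted p = 0.0324; exact permutation p = 0.0286), and 0.95 without the weak array (SE 0.28, adjusted p = 0.0423). From Fn14ko mice it was 1.24 (SE 0.34, adjusted p = 0.06; exact permutation p = 0.0286), and 0.55 without the weak array (SE 0.28, adjusted p = 0.272). Of the 39 genes, 5 did not overlap between MRL/lpr and MRL/+ and 5 between MRL/lpr and Fn14ko mice, where 16.1% and 21.5% of all genes did not overlap. Between Fn14ko and MRL/+ mice 6 of the 39 did not overlap, where 19.9% of all genes did not.

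**Figure D3:**
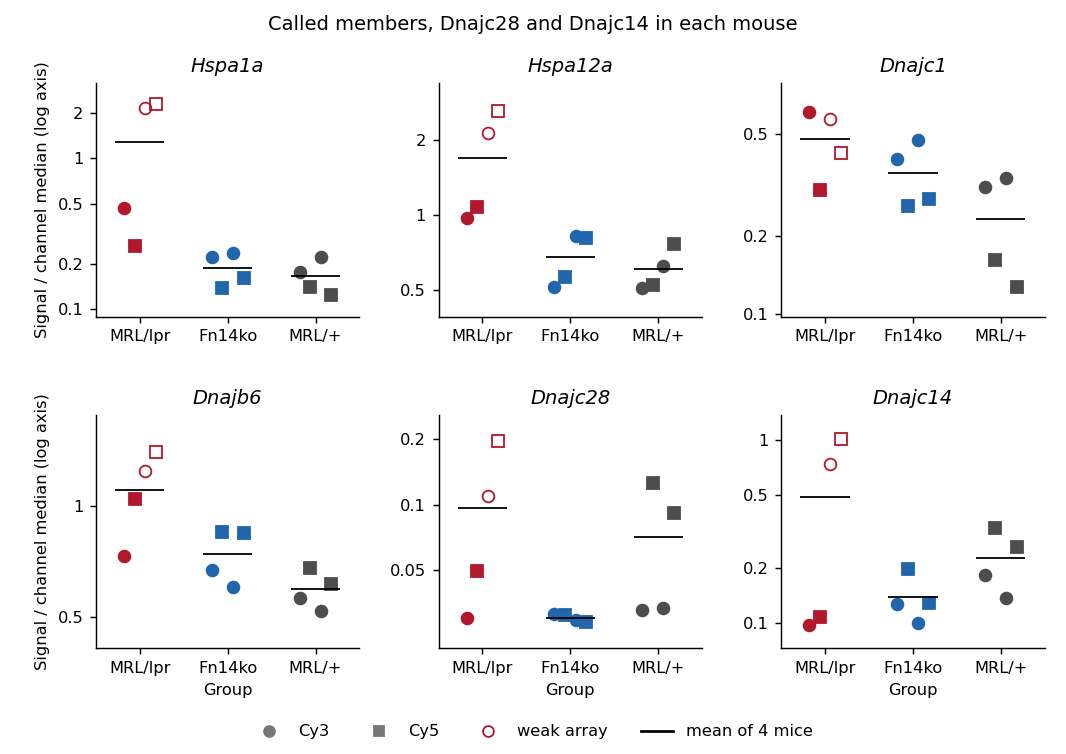
Signal of the 4 genes called between MRL/lpr and MRL/+ and of Dnajc28 and Dnajc14, divided by the channel median on log axes; each point is a mouse, circles Cy3 and squares Cy5, hollow points the weak array, bars the mean of 4 mice. All 4 MRL/lpr mice stand above the other groups for Hspa1a and Hspa12a, while for Dnajc14 only the hollow points are high (0.736 and 1.01).

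*Hspa8*, *Hspa5* and *Hspa13* did not pass in any comparison with or without the weak array. *Hspa8*, the main cytosolic HSP70 of neurons, read 14.2, 20.5, 2.52 and 2.01 in MRL/lpr, 11.2 to 17.6 in Fn14ko mice and 10.8 to 16.2 in MRL/+. *Hspa5*, the HSP70 of the endoplasmic reticulum also known as BiP, read 7.67, 14.4, 0.554 and 0.693 in MRL/lpr, 7.17 to 10.1 in Fn14ko mice and 7.67 to 11.9 in MRL/+. The low MRL/lpr values of both lie on the weak array. Their log2 differences from MRL/+, −1.14 and −1.86 with 12 mice (adjusted p = 0.214 and 0.146), were 0.48 and 0.34 without it (adjusted p = 0.101 and 0.277). *Hspa13*, a microsomal HSP70, differed from MRL/+ by −0.13 (adjusted p = 0.723).

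*Hspa9*, the mitochondrial HSP70 or mortalin, read 2.12, 1.40, 1.5 and 2.53 in MRL/lpr, 1.88, 1.72, 2.17 and 1.62 in Fn14ko mice, and 1.52, 1.03, 1.65 and 0.893 in MRL/+. In the 10 samples it was higher in Fn14ko mice than in MRL/+ by 0.82 on the log2 scale (SE 0.18, adjusted p = 0.0127), by 0.40 within Cy3 and 1.25 within Cy5. *Hspa2*, best known for its role in the testis and also present in neurons, was low in Fn14ko mice. It read 1.25 and 2.06 in MRL/lpr replicates 1 and 2, 0.473 and 0.362 on the weak array, 0.815, 0.628, 0.254 and 0.426 in Fn14ko mice, and 1.11, 1.74, 1.17 and 1.52 in MRL/+. Outside the weak array every Fn14ko mouse was below every mouse of the other groups. Without the weak array MRL/lpr was higher by 1.64 (SE 0.37, adjusted p = 0.0208) and Fn14ko mice were lower than MRL/+ by a log2 difference of −1.24 (SE 0.30, adjusted p = 0.0192), −1.28 within Cy3 and −1.20 within Cy5. With all 12 mice and no filter the differences were 0.75 (adjusted p = 0.235) and −1.49 (adjusted p = 0.314).

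The HSP110 and HSP90 genes did not pass in any of the 3 comparisons, with or without the weak array. *Hsph1*, the inducible HSP110, read 4.89, 5.14, 2.89 and 2.23 in MRL/lpr, 3.61 to 4.27 in Fn14ko mice and 3.74 to 4.93 in MRL/+. *Hspa4l*, its relative, read 1.33, 1.82, 1.31 and 1.03 in MRL/lpr, 1.17 to 1.35 in Fn14ko mice and 1.24, 0.569, 1.21 and 0.716 in MRL/+. The low MRL/+ values of *Hspa4l* are the Cy5 mice. *Hsp90aa1*, the inducible cytosolic HSP90, read 11.1, 12.3, 4.38 and 3.27 in MRL/lpr, 8.39 to 10.9 in Fn14ko mice and 6.04 to 11.4 in MRL/+. *Hsp90ab1*, the constitutive form, read 39.7, 52.6, 24.5 and 18.4, then 27.7 to 36.1 and 31.6 to 64.3. *Hsp90b1*, the HSP90 of the endoplasmic reticulum, read 3.58 to 7.01, 4.65 to 7.03 and 2.53 to 5.55, so its groups overlapped.

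Of the mitochondrial chaperonin, *Hspd1*, which encodes HSP60, read 2.99, 2.90, 1.74 and 1.63 in MRL/lpr, 2.43, 2.64, 2.17 and 2.44 in Fn14ko mice, and 1.88, 0.409, 2.06 and 0.600 in MRL/+. Every Fn14ko mouse was above every MRL/+ mouse, and the low MRL/+ values are the Cy5 mice. The log2 difference was 1.29 with 12 mice (SE 0.43, adjusted p = 0.16; exact permutation p = 0.0286) and 1.54 in the 10 samples (SE 0.45, adjusted p = 0.0358). Over 10 samples it was 0.27 within Cy3 and 2.81 within Cy5. *Hspe1*, which encodes HSP10, read 1.73, 1.91, 3.51 and 4.61 in MRL/lpr, 1.29 to 2.03 in Fn14ko mice and 1.13 to 1.93 in MRL/+. The high MRL/lpr values come from the probe at 55148026 alone, and the log2 difference from MRL/+ was 0.82 with 12 mice (adjusted p = 0.109) and 0.48 in the 10 samples (adjusted p = 0.243).

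Among the small heat shock proteins, *Hspb3* fell in MRL/lpr. It is known from muscle and motor nerves, where it partners *Hspb2*. It read 0.0483, 0.0557, 0.0822 and 0.167 in MRL/lpr, 0.103, 0.185, 0.241 and 0.232 in Fn14ko mice, and 0.251, 0.353, 0.285 and 0.314 in MRL/+. All 4 MRL/lpr mice and all 4 Fn14ko mice were below every MRL/+ mouse. With no filter the log2 difference between MRL/lpr and MRL/+ was −1.94 (SE 0.42, adjusted p = 0.0292; exact permutation p = 0.0286), where 1.69% of genes passed in that direction. In the 10 samples it was −2.36 (SE 0.31, adjusted p = 0.000847), −2.52 within Cy3 and −2.21 within Cy5. Against Fn14ko mice it was −1.89 (SE 0.31, adjusted p = 0.00447) in the 10 samples and −1.21 (SE 0.42, adjusted p = 0.0942) with 12 mice.

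*Hspb6*, a small heat shock protein of muscle and astrocytes, read 0.125 and 0.111 in MRL/lpr replicates 1 and 2 and 0.190 and 0.345 on the weak array. It read 0.255, 0.204, 0.225 and 0.144 in Fn14ko mice and 0.286, 0.237, 0.290 and 0.219 in MRL/+. Outside the weak array the MRL/lpr mice were below all others, and on it they were not. The 10-sample differences were −0.96 from MRL/+ (SE 0.20, adjusted p = 0.0111) and −0.87 from Fn14ko mice (SE 0.20, adjusted p = 0.0239), while with 12 mice and no filter they were −0.56 (adjusted p = 0.512) and −0.22 (adjusted p = 0.62). *Hspb1*, the inducible HSP27, read 2.32, 2.86, 0.367 and 0.733 in MRL/lpr, 1.09 to 1.99 in Fn14ko mice and 1.21 to 2.43 in MRL/+. Once the weak array was left out, MRL/lpr was higher than MRL/+ by 0.78 (SE 0.23, adjusted p = 0.0431), and with 12 mice the difference was −0.54 (adjusted p = 0.475).

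**Figure D4:**
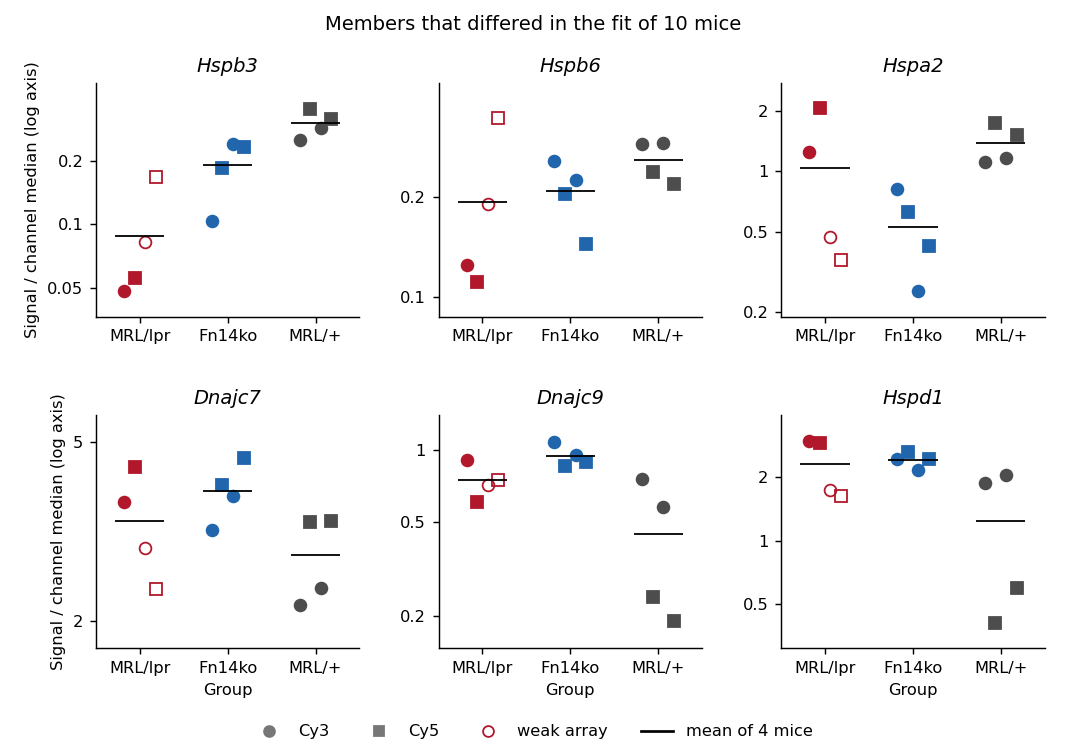
Signal of 6 chaperone genes that passed between at least 1 pair of groups in the 10 samples without the weak array, divided by the channel median on log axes; each point is a mouse, circles Cy3 and squares Cy5, hollow points the weak array, bars the mean of 4 mice. Hspb3 is lowest in MRL/lpr (0.0483 to 0.167), Hspa2 is low in Fn14ko mice (0.254 to 0.815), and for Dnajc9 and Hspd1 the low MRL/+ points are both Cy5.

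Of the DnaJ proteins, *Dnajc1* and *Dnajb6* passed between MRL/lpr and MRL/+. *Dnajc1*, a membrane J protein of the endoplasmic reticulum that binds BiP, read 0.606, 0.303, 0.571 and 0.420 in MRL/lpr, 0.398, 0.262, 0.471 and 0.278 in Fn14ko mice, and 0.310, 0.161, 0.338 and 0.127 in MRL/+. In each group the Cy3 mice were the brighter, and the groups overlapped until compared within a dye. The log2 difference was 1.09 (SE 0.25, adjusted p = 0.0269; exact permutation p = 0.0857), 0.86 within Cy3 and 1.32 within Cy5. Without the weak array it was 1.16 (SE 0.24, adjusted p = 0.00931), and Fn14ko mice were also above MRL/+ by 0.92 (SE 0.19, adjusted p = 0.0111). *Dnajb6*, which keeps aggregation-prone proteins soluble, read 0.732, 1.05, 1.25 and 1.41 in MRL/lpr against 0.562, 0.681, 0.518 and 0.615 in MRL/+, with no overlap and a log2 difference of 0.87 (SE 0.22, adjusted p = 0.0349; exact permutation p = 0.0286). These values average the pair of probes that parted on the weak array. In the 10 samples, with all 4 probes of the gene, the difference was 0.27 (SE 0.26, adjusted p = 0.499).

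The class A protein *Dnaja1*, a general partner of cytosolic HSP70, read 6.99, 9.64, 1.69 and 1.91 in MRL/lpr, 6.43 to 8.82 in Fn14ko mice and 4.53 to 6.61 in MRL/+. In the 10 samples it was above MRL/+ in MRL/lpr by 0.67 (SE 0.17, adjusted p = 0.025) and in Fn14ko mice by 0.63 (SE 0.14, adjusted p = 0.0129), against −0.58 and 0.40 with 12 mice (adjusted p = 0.396 and 0.798). *Dnajc7*, which bridges HSP70 and HSP90, read 3.67, 4.39, 2.91 and 2.36 in MRL/lpr, 3.19, 4.01, 3.80 and 4.61 in Fn14ko mice, and 2.17, 3.33, 2.38 and 3.34 in MRL/+. Its 10-sample differences from MRL/+ were 0.71 (SE 0.16, adjusted p = 0.0144) and 0.74 (SE 0.13, adjusted p = 0.00536), and the latter was 0.66 within Cy3 and 0.82 within Cy5. With 12 mice they were 0.24 and 0.49 (adjusted p = 0.485 and 0.384).

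*Dnajb1*, the inducible HSP40, read 3.81, 4.35, 1.57 and 1.08 in MRL/lpr, 2.68 to 3.53 in Fn14ko mice and 2.72 to 4.08 in MRL/+, and passed in none of the comparisons with or without the weak array. *Dnajc9*, a J protein that handles histones, read 0.913, 0.608, 0.715 and 0.748 in MRL/lpr, 1.08, 0.859, 0.952 and 0.889 in Fn14ko mice, and 0.759, 0.241, 0.577 and 0.191 in MRL/+. The difference between Fn14ko mice and MRL/+ was 1.32 with 12 mice (SE 0.31, adjusted p = 0.0861; exact permutation p = 0.0286) and 1.57 in the 10 samples (SE 0.32, adjusted p = 0.0101), 0.66 within Cy3 and 2.48 within Cy5. *Dnajb2*, a neuronal J protein that steers clients to the proteasome, was lower in all 4 MRL/lpr mice than in MRL/+ without passing (log2 difference −0.82, SE 0.26, adjusted p = 0.0626; exact permutation p = 0.0286). Without the weak array its difference was −0.40 (SE 0.17, adjusted p = 0.136), and its probes differed by 10.7-fold in the level of the weak array relative to the other 10 samples.

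The difference of *Dnajb9* between MRL/lpr and MRL/+, and those of *Dnajc19* between MRL/lpr and the other groups, rested on the weak array. *Dnajb9*, an endoplasmic reticulum J protein that restrains the stress sensor IRE1, read 0.125, 0.177, 3.58 and 7.59 in MRL/lpr, 0.0374 to 0.0844 in Fn14ko mice and 0.0887 to 0.160 in MRL/+. On this probe, the one measured in all 12 mice, MRL/lpr replicates 1 and 2 also lay above every Fn14ko mouse. The log2 differences were 2.82 from MRL/+ (SE 1.13, adjusted p = 0.104) and 4.03 from Fn14ko mice (SE 1.13, adjusted p = 0.0627). The 10 samples, in which a second probe also counts, gave 0.07 and 0.32 (adjusted p = 0.896 and 0.66). On that second probe, at 45307313 to 45307372 of chromosome 12, the weak array read 0.366 times the other samples, against 53.5 times on the first, at 45308272 to 45308331. *Dnajc19*, part of the mitochondrial import motor, read 0.363, 0.506, 4.51 and 6.29 in MRL/lpr, 0.292 to 0.483 in Fn14ko mice and 0.426 to 1.17 in MRL/+, and without the weak array its difference from MRL/+ went from 1.15 to −0.40 (adjusted p = 0.291 and 0.0973).

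**Figure D5:**
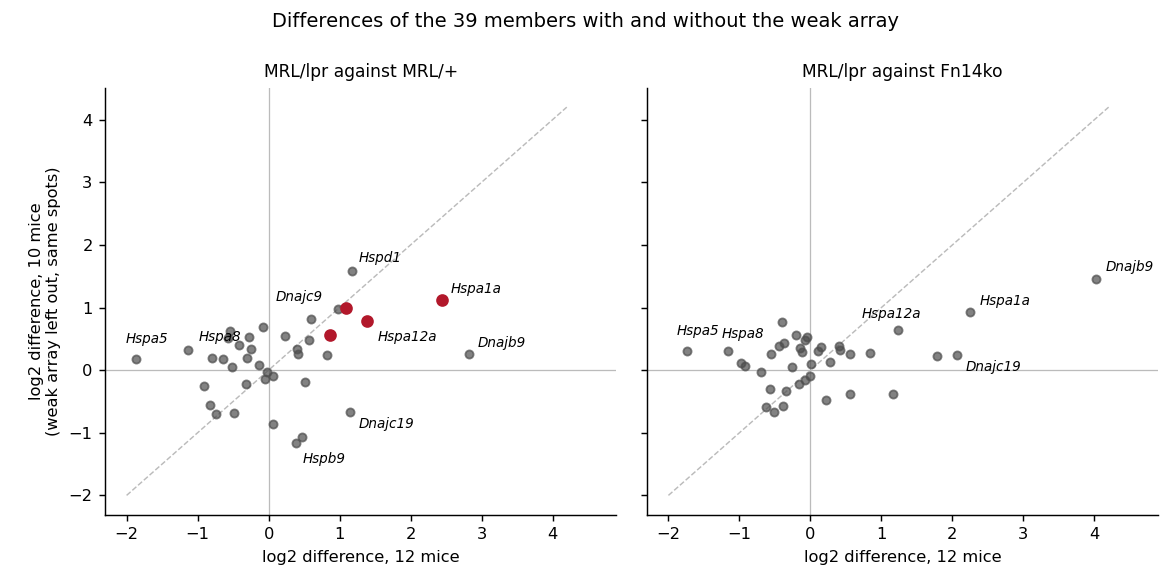
Log2 difference of each of the 39 chaperone genes with all 12 mice (x axis) and with the weak array left out on the same spots (y axis), for MRL/lpr against MRL/+ and against Fn14ko; red points passed with 12 mice and the dashed line marks equal values. Dnajb9, Dnajc19, Hspa5 and Hspa8 lie far from the line, and the red points stay above 0, with Hspa1a at 1.11.

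Among the synaptic J proteins, *Dnajc5*, the cysteine string protein of synaptic vesicles, read 7.42, 9.09, 3.62 and 2.27 in MRL/lpr, 3.87 to 6.92 in Fn14ko mice and 3.55 to 7.12 in MRL/+. With 10 samples MRL/lpr was higher than MRL/+ by 0.82 (SE 0.23, adjusted p = 0.0334), and with 12 mice the difference was −0.08 (adjusted p = 0.904). *Dnajc6*, or auxilin, which uncoats clathrin vesicles, differed by −0.14 with 12 mice and no filter and by −0.80 in the 10 samples (adjusted p = 1 and 0.081). *Dnajc5b* and *Dnajc5g*, relatives of *Dnajc5* known from testis, had probes that cleared background in MRL/lpr alone. With no filter 4 of the 73 members, both of them included, passed as higher in MRL/lpr than in Fn14ko mice, where 5.37% of genes did. The *Dnajc5g* probe did so in 4 MRL/lpr mice and in 0 of the other 8, at 0.0541 and 0.104 in replicates 1 and 2 and 1.74 and 2.10 on the weak array. As a bound, the mean log2 signal of MRL/lpr was set against the mean of, per mouse, the higher of the dim probe's own log2 signal and the lowest one well above background on its channel, after loess and Aquantile normalization. The bound is thus a ratio of geometric means and is open to dye bias, and it does not say that the mice part: the MRL/+ Cy5 mice read 0.118 and 0.0795 on the *Dnajc5g* probe, not well above background, beside 0.0541 and 0.104 in MRL/lpr replicates 1 and 2. *Dnajc5g* was at least 10.6-fold higher than in Fn14ko mice and at least 7.15-fold higher than in MRL/+. Without the weak array these bounds were 2.40-fold and 1.62-fold. Against Fn14ko mice the limma fit with no filter gave adjusted p = 0.0221, on another scale than the bound. In that fit the Fn14ko values were 0.01, 0.01, 0.01 and 0.0169, at or near the floor, and the median of all genes moved by 1.34. That p therefore does not measure the spread of the transcript between mice. *Dnajc5b* was bounded by the probe that was well above background in MRL/lpr replicates 1 and 2 only. It was at least 6.10-fold higher than in Fn14ko mice and at least 3.75-fold higher than in MRL/+. Without the weak array these bounds were 24.8-fold and 15.3-fold. Its limma adjusted p against Fn14ko mice, 0.0104 with no filter, belongs to the mean of its probes and not to the bound. It has the same limit, with Fn14ko values of 0.01, 0.0105, 0.01 and 0.0135. As the mean of its probes *Dnajc5b* read 0.224, 0.717, 0.0897 and 0.211 in MRL/lpr and at most 0.0135 in Fn14ko mice. In MRL/+ it read 0.01, 0.129, 0.01 and 0.0927, so the MRL/+ Cy5 mice overlapped the MRL/lpr mice of the weak array.

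By list, 10 of the 11 textbook targets of *Hsf1* were measured. *Hspa1a* rose between MRL/lpr and MRL/+ and the other 9 did not pass, with a median of −0.36 for the list. Once the weak array was left out, *Hspa1a*, *Hspb1* and *Dnaja1* rose, 3 of 10 where 6.11% of all genes did, and the median was 0.61, beside −0.10 for all genes. Between MRL/lpr and Fn14ko mice 1 of the 10 rose, where 4.09% of genes did, with a median of 0.23. Between Fn14ko mice and MRL/+ 2 rose, where 10% of genes did, with a median of 0.33. All genes had medians of −0.04 and −0.07 in these comparisons. The list medians of the 10 samples were not split by dye. In those values the MRL/+ Cy5 mice read below the MRL/+ Cy3 mice for *Hspd1*, *Hspe1*, *Hspa4l*, *Hsph1* and *Hspa1a*. They read above them for *Hspb1*, and the other genes of the list overlapped between dyes. Of the 11 chaperones of the endoplasmic reticulum, 7 were measured in all 12 mice and 1 rose between MRL/lpr and MRL/+, *Dnajc1*, with a list median of −0.02, and *Dnajb11*, *Dnajc3* and *Hsp90b1* did not pass in any comparison with or without the weak array. Of the 7 mitochondrial chaperones, 0 of 6 passed with 12 mice, and in the 10 samples *Hspd1* and *Hspa9* rose and *Dnajc19* fell between Fn14ko mice and MRL/+, where 10% and 11.1% of genes did. *Dnaja2* and *Dnaja3*, the class A proteins of the cytosol and of mitochondria, did not pass in any of them.

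Among 47 other genes of the pathway, regulators, co-chaperones, exchange factors and the cytosolic chaperonin, 32 were measured in all 12 mice. *St13*, the HSP70-interacting protein Hip, rose between MRL/lpr and MRL/+ (log2 difference 1.37, SE 0.32, adjusted p = 0.0278), and 0 passed in the other comparisons. In the 10 samples 4 rose and 2 fell of 45 between MRL/lpr and MRL/+, where 6.11% and 9.61% of all genes did. Between MRL/lpr and Fn14ko mice 1 rose and 2 fell (4.09% and 5.03% of all genes), and between Fn14ko mice and MRL/+ 8 rose and 1 fell (10% and 11.1%). *Hsf4*, a heat shock factor known from the lens, fell in MRL/lpr by a difference of −2.22 from MRL/+ (SE 0.19, adjusted p = 8.43e-05) and −1.47 from Fn14ko mice (SE 0.19, adjusted p = 0.00147). *Hsf2* rose in both, by 1.16 (SE 0.23, adjusted p = 0.00755) and 0.86 (SE 0.23, adjusted p = 0.0405). These values of *Hsf4* and *Hsf2* are from the 10 samples, where MRL/lpr holds 2 mice on a single array. Neither was among the genes that passed in the fit of spots measured in all 12 mice. *Hsf1* itself was measured only in the 10 samples and did not pass, with adjusted p = 0.608, 0.853 and 0.276 in the order of the comparisons above.

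Markers of cells and regions moved with the groups too, and their part in these results was not tested. Bulk tissue cannot tell fewer cells of a type from less RNA per cell. Summed signals of 10 choroid plexus markers were 9.74 to 39.1 in MRL/lpr, 0.67 to 5.60 in Fn14ko mice and 1.04 to 2.92 in MRL/+, of 5 blood markers 16.0 to 174 (136 to 174 in replicates 1 and 2), 25.4 to 86.7 and 47.3 to 57.6, and of 9 striatal markers 3.82 to 5.60, 9.08 to 25.0 and 5.26 to 8.81. Summed signals of 7 markers of neocortical layers were 1.42 to 5.26 in MRL/lpr (1.42 and 1.58 in replicates 1 and 2), 2.80 to 4.76 in Fn14ko mice and 5.63 to 8.43 in MRL/+. All 16 markers of hippocampal neurons were well above background in at least 1 mouse outside the weak array, and of those measured 9 rose and 1 fell of 13 between MRL/lpr and MRL/+ in the 10 samples, where 6.11% and 9.61% of all genes did. Summed signals of the 16 were 21.1 to 40.4 in MRL/lpr, 24.0 to 35.1 in Fn14ko mice and 38.1 to 90.6 in MRL/+. MRL/lpr replicates 1 and 2 lay at 34.8 to 40.4, so the sum did not follow the count.

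The promoters of 59 members are in RefSeq's table for GRCm38.p6, as windows around each start site, several for some genes. The heat shock element GAANNTTC, sought on both strands, occurs in the promoters of 13 members (22%) and of 9.04% of all genes in the table. Its trimer, which is that motif followed by NNGAA and so always contains it, occurs in those of *Dnajb6*, *Hspd1*, *Hspe1* and *Hsph1* (6.78%) and of 0.662% of all genes. The endoplasmic reticulum stress element, CCAAT and CCACG with 9 free bases between them, occurs in those of *Hspa5*, *Hsp90b1* and *Dnajc3* (5.08%) and of 0.137% of all genes. Windows of 30 bases are shown for genes that passed and genes that did not, with the motif in capitals. *Hspd1* and *Hspe1* lie head to head and share an element.
Hspa1a, chr17:34972242-34972271, minus strand: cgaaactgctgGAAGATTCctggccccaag
Dnajb6, chr5:29735844-29735873, plus strand: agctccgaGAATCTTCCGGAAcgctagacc
Hspe1, chr1:55088056-55088085, plus strand: ccgttctaGAACCTTCCGGAAggccccgcg
Hspa5, chr2:34772020-34772049, plus strand: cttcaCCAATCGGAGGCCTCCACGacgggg
Dnajc3, chr14:118937822-118937851, plus strand: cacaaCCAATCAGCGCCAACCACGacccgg
A match to these letters is a description of the sequence and does not show that a factor binds there.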

How the data were processed

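Hippocampal RNA was hybridised to 6 two-colour Agilent mouse arrays with 60-base probes. The authors deposited the scanner output of Agilent Feature Extraction 12.1, read here as foreground and background intensity per spot and channel, with outlier and background flags. Following the study's methods, background was subtracted, spots flagged as outliers or dimmer than 2 times their background were removed, and the median of the spots left in all 12 samples set the scale of each channel. Spots were averaged per probe and probes per gene, and log2 values were tested with limma 3.58.1 (R 4.3.3; 3 groups plus dye, intensity trend). The analysis was tested on simulated data with independent noise per sample. The simulation had no shared array effect and no weak array, so it cannot show the error rate in their presence. Genes not valid in all 12 samples come from a fit without the filter (29608 genes), with signals floored at 1% of the channel median; the fit of 10 samples used 25621 spots and its own median. Per-mouse values are on the 12-sample scale throughout. Permutation tests were exact and two-sided, over single mice, without regard to dye or to the array that mice share. The number of arrays limits precision. Mice on an array share it, and p-values measure the spread between these samples.

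Members and lists were chosen with earlier results of these data known. Named were *Dnajc28*, *Dnajc14*, members past the threshold, the 3 largest rises and falls per comparison, the *Hsf1* target list, the main compartment-specific and synaptic chaperones, and pathway genes past the threshold; genes called only in the 10-sample or unfiltered fit were chosen after their values were seen. Alternatives covered background correction, normalization, filter, probe choice, covariates, weights, array block, the methods' t-test and each mouse left out. The all-spot scale and single-dye fits were added after seeing the data. Gene names are those in the array files. Same-numbered mice did not deviate together (r from −0.40 to 0.50 over 12 pairs; other mice of the same dye −0.29 to 0.52).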

Additional observations from a re-analysis of the deposited data

Results flagged for a closer look

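Among the 29 members whose values are given per mouse, 87 groups of 4 mice were examined for a mouse far from the other 3, and 3 groups had one, where chance gives about 1 in 20. For *Dnajb1* in MRL/+, replicate 1 read 2.72 against 3.87 to 4.08 in the other mice. For *Dnajc5b* and *Dnajc5g* in the mice labelled Fn14ko, replicate 4 read 0.0135 and 0.0169 while the others lay at or near the floor of 1% of the channel median, and none of these spots was well above background.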

How the results depend on the processing

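The members called between MRL/lpr and MRL/+, MRL/lpr and Fn14ko mice, and Fn14ko and MRL/+ mice numbered 4, 0 and 0. Left-out single mice gave 0 to 13, 0 to 13 and 0; the 13 came without MRL/lpr replicate 2, and 0 in the first comparison without MRL/lpr replicate 4, Fn14ko replicates 2 or 4, or any MRL/+ mouse. Counts were 9, 2 and 10 without the weak array on the same spots, 14, 4 and 15 on the spots valid in the other 10 samples, and 8, 2 and 12 with array weights. Of all genes, 9.17%, 3.98% and 0.519% passed with 12 mice, and 15.7%, 9.12% and 21.1% on the 10-sample spots. Shares under the other settings are not given, so those counts do not set chaperones apart from all genes. In the first comparison the count was 0 with the array as a random block, in Cy3 or Cy5 mice alone and by the methods' t-test after adjustment, 1 with quantile or loess and Aquantile normalization, and 2 on spots well above background everywhere or with no filter and the median of all spots as the scale. In the second it was 1 with normexp or the scanner's processed signal, 4 with no filter and 9 on the all-spot scale. The methods' t-test unadjusted passed 2 and 7 in the comparisons of Fn14ko mice with MRL/lpr and MRL/+. The replicate block in place of dye gave 2 and 1 members in the first and second comparisons; numbers do not pair these mice. Between Fn14ko and MRL/+ mice, leaving out the weak array on the same spots did not alter the differences (median 0.01, range −1.39 to 1.32 in each fit). The weak array holds no mouse of these groups, so only the spread estimated over all groups differed. The cause of the other changes was not tested.

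Some signs turned. On the all-spot scale *Dnajb6* was −0.47 against MRL/+ and *Hspa12a* −0.22 against Fn14ko mice. *Dnajc28* against MRL/+ was −0.63 without the weak array on the same spots, −0.15 with quantile, −0.57 with loess and Aquantile normalization, −0.12 in Cy5 mice, −0.21 on the all-spot scale, −0.47 in the 10 samples and −0.035 to 0.71 with single mice left out; against Fn14ko mice it was −0.56, −0.64 and −0.14 with quantile, loess and the all-spot scale. *Dnajc14* against MRL/+ was −1.07 on the same spots without the weak array, −0.80 with array weights, −0.077 on the all-spot scale, −0.85 in the 10 samples and −0.12 to 1.13 with single mice left out; against Fn14ko mice the first 4 of these gave −0.38, −0.12, −0.19 and −0.30. Signal over background on the weak array limits every value that includes it.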
